A study of Homo sapiens with 12 samples.

Results

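The cytosolic ribosomal protein genes encode the proteins of the large (RPL) and small (RPS) ribosomal subunits. They were picked by name alone: every listed gene called RPL or RPS plus a digit, with RPLP0, RPLP1, RPLP2 and RPSA, and without the RPS6K kinases, RPS19BP1 and names that mark a pseudogene. The rule gave 91 of the 25718 genes listed. Of these, 85 are protein genes (53 of the large and 32 of the small subunit), 3 are readthrough transcripts into a neighbouring gene, 1 is the antisense gene RPL34-AS1 and 2 are Y-linked, whose values are not given. A gene with several listed transcripts was represented by the transcript with the highest mean count.

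The samples were human neural progenitors made from the embryonic stem cell line H9, 3 per group in 4 groups and 12 in all. The stem cells carried a lentiviral vector, added at a multiplicity of infection of 50, that makes either miR-10a or miR-10b together with GFP under doxycycline control. All groups went through 14 days of neural induction with CT0.8 and Shh at 200 ng/ml to pattern them towards midbrain. Doxycycline was given from day 11 to day 14 in the miR-10a and miR-10b doxycycline groups and left out in the miR-10a and miR-10b controls, which also carried the vectors. No group analysed here received doxycycline with a vector lacking a miRNA, so effects of doxycycline, of GFP and of the miRNA cannot be told apart. The labels name no separate cultures for the replicates, and the p-values therefore measure only the spread between these samples, which may be technical.

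A ribosome holds a single copy of nearly every one of these proteins, and cells keep the output of their genes in balance. Most of the mRNAs belong to the TOP class, which begins at the cap with a C followed by an uninterrupted stretch of pyrimidines, and the TOR pathway controls their translation through this stretch. miR-10a has been described as binding near the start of such mRNAs and altering their translation. The mRNA counts used here show transcript abundance and do not measure translation.

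The sequences behind this proposal are shown first: the miRNA, and the transcript starts that carry, or lack, the TOP stretch. The mature miR-10a-5p (chr17:48579904-48579926, minus strand, GRCh38.p14, RefSeq) has its seed, bases 2 to 8, in capitals. Next, for 12 members that recur in the comparisons, come the 10 bases before the RefSeq transcription start and the first 20 transcribed bases, 5′ to 3′ (GRCh38.p14). Capitals there mark the longest pyrimidine stretch of at least 5 bases that opens with C within 10 bases of the start.
miR-10a-5p: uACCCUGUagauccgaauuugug
RPS6, chr9:19380217-19380246, minus strand: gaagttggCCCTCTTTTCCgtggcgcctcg
RPS16, chr19:39435930-39435959, minus strand: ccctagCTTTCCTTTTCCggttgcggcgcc
RPL7A, chr9:133348208-133348237, plus strand: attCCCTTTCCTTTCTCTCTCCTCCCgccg
RPL10A, chr6:35468391-35468420, plus strand: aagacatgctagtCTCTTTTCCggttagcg
RPS18, chr6:33272065-33272094, plus strand: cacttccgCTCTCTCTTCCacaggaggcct
RPL12, chr9:127451387-127451416, minus strand: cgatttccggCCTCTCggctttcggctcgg
RPL27A, chr11:8682782-8682811, plus strand: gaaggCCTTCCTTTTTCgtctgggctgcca
RPL36A, chrX:101391001-101391030, plus strand: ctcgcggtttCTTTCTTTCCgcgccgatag
RPS3A, chr4:151099618-151099647, plus strand: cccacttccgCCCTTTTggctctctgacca
RPS7, chr2:3575250-3575279, plus strand: cgCCCTCCTCCTCgcgctgtttccgcctct
RPS27, chr1:153990752-153990781, plus strand: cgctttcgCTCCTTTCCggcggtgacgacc
RPS27L, chr15:63157458-63157487, minus strand: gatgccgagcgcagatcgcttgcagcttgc

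Among these 12 windows, RPS27L, whose protein is a close relative of RPS27, is the one with no such stretch, while RPS27 itself has one. Over the 68 protein genes with a RefSeq promoter entry, 43 (63.2%) had a C at the annotated start followed by at least 4 pyrimidines, against 4.04% of all 27305 promoters. Within 10 bases of the start, a stretch of that kind was present in 57 members (83.8%) and in 33.3% of all promoters. RPL10A is an example of a stretch that begins a few bases inside the annotated transcript.

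The perfect match to bases 2 to 8 of miR-10a-5p is ACAGGGT, searched on the transcribed strand only. It was found in the first 50 bases after the annotated start in 0 of the 68 members, against 0.212% of all promoters. In the longest annotated 5′ untranslated region (GENCODE annotation of GRCh37), RPS7 was the one tested member of 69 with a match (1.45%), against 2.13% of the 9253 genes tested with such a region. In the longest annotated 3′ untranslated region 9 of 69 tested members (13.0%) held it, against 16.3% of genes tested. The median length of that region was 546 bases in the members and 1554 bases in the genes tested. RPS29 alone among the tested members held the 8-base match ACAGGGTA there (1.45%, against 2.59%). The longest region can belong to another transcript than the one counted. For RPS29 it has 6831 bases and the counted transcript 336, and for RPL23 2275 and 577. Whether the counted mRNAs carry the matches was not tested. These matches describe the letters in these windows and not binding.

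The order of abundance was read from RPKM values, counts per kilobase of transcript per 1000000 counts, which take the listed transcript length into account. The order depends on those lengths. RPL37, listed at 1570 bases, had a mean of 8122 counts and 420 RPKM, and RPL23, listed at 577 bases, had 8850 counts and 1246 RPKM. Whether the listed lengths are those of the mRNAs in these cells was not tested. RPS6, a small-subunit protein that is phosphorylated downstream of TOR, was highest at 2339 ± 118 RPKM (SD, n = 12). RPL37A had 1947 ± 72.5 and RPS4X 1836 ± 60.8 RPKM. The samples of RPS6 did not overlap those of RPL37A, while RPL37A and RPS4X overlapped. RPL4, RPL26, RPL19, RPS2 and RPL23 were also among the 10 highest, from 1350.2 ± 52.0 down to 1246 ± 39.9 RPKM, each overlapping its neighbour. The median over the 49 tested members with 1 listed transcript was 774 RPKM, and over the 20 with several it was 5.31 RPKM. Over all 11451 genes tested, with 1 or several listed transcripts, it was 6.96 RPKM, so the 774 and the 6.96 do not compare like sets.

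A large part of the family was thinly counted in these files. The 32 protein genes with several listed transcripts had a median of 16.7 counts, against 6015 counts in the 53 with a single transcript. RPLP0, the stalk protein often used as a reference gene, had 0.920 RPKM, and RPL9, next to the stalk in the large subunit, had 5.47 RPKM. RPL10, RPL13A, RPL18, RPL21 and RPL32 had no count in any sample. A count of 0 allows up to 0.212 to 0.284 counts per 1000000 (CPM) at the depth of these libraries, counting error only.

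Sequence shared with other places in the genome was a second limit. Windows of 50 bases were taken from the GENCODE transcript nearest in length to the listed one. A window was counted as unique if it occurred at most once in the GRCh37 genome. Windows across exon junctions, which may be absent from the genome or found only in a copy, can thus count as unique. Sharing with copies can therefore be larger than these percents show. For RPL21, 0% of the windows were unique. RPL7 and RPS27 were counted at 92.7 and 138 RPKM with 1 listed transcript each, and 6.59% and 9.57% of their windows were unique. In all, 20 of the 85 protein genes had fewer than 50% unique windows, and GENCODE names 1599 pseudogenes of 78 of them. The levels of such members, among them RPS2 (28.2%), RPL39 (20.2%) and RPS3A (19.1%), are therefore uncertain. How the counting treated shared reads was not tested.

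**Figure D1:**
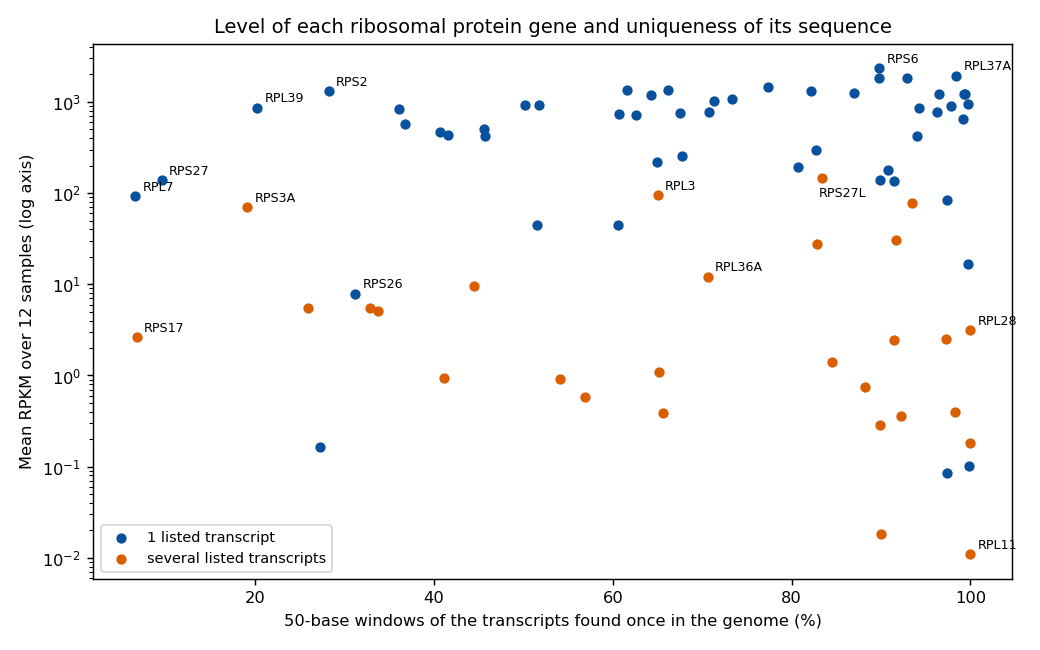
Mean RPKM over 12 samples (log axis) of each ribosomal protein gene with any count, against the percent of unique 50-base windows of a transcript. Unique windows, labelled as found once on the axis, are those that occur at most once in the GRCh37 genome. Members with several listed transcripts lie mostly below those with 1, and RPL7 with 6.59% and RPS27 with 9.57% unique windows lie far below RPS6.

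Of the 85 protein genes, 69 passed a mean of 10 counts and were tested, 41 of the large and 28 of the small subunit. The 16 that did not pass were RPL10, RPL10L, RPL11, RPL13A, RPL14, RPL18, RPL21, RPL32, RPL34, RPL38, RPL3L, RPL8, RPS14, RPS15A, RPS27A and RPSA. They include RPL11, a protein that binds MDM2 when ribosome assembly is disturbed, and RPS14, which is lost in the 5q- syndrome. RPL3L and RPL10L, the paralogs known from muscle and testis, had at most 0.665 and 0.284 CPM in any sample.

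The induced miRNA and the libraries were checked before the comparisons. The MIR10A gene was counted at 711 to 731 CPM in the miR-10a doxycycline samples and at 0.641 to 1.37 CPM in their controls, and MIR10B at 2541 to 2662 CPM in the miR-10b doxycycline samples and at 2.89 to 4.45 CPM in their controls. The libraries held 10545487 to 14165426 counts. All 7 neural progenitor markers had a mean above 1 CPM in every group, while LMX1B and OTX2 of the 8 ventral midbrain markers, POU5F1, NANOG and TDGF1 of the 4 pluripotent cell markers, DCX, ELAVL3 and ELAVL4 of the 6 neuron markers and all 8 neural crest and mesendoderm markers were below it in every group. Each of the named markers below it has several listed transcripts, as the thinly counted members do, so a low count there does not show that the mRNA was absent. The miR-10b doxycycline replicate 2 stood apart in a comparison over all genes averaging more than 10 counts: its counts differed from the other replicates of its group by a chi-square per degree of freedom of 3.17 and 4.11, against 1.22 to 1.93 in every other replicate pair. The folds of members and genes called for miR-10b, and the miR-10b medians and counts of calls, are given with and without it.

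Whether ribosomal protein mRNAs responded to miR-10a was asked first. None of the 69 tested members passed an adjusted p of 0.05 in edgeR's quasi-likelihood test, against 1.21% of all genes tested (0.472% higher and 0.742% lower), and 2 had an unadjusted p below 0.05. DESeq2 also called 0. The median log2 fold change (doxycycline over control) was -0.0035 in the members and 0.010 over all genes. With 1 sample left out the median of the members ran from -0.015 (without miR-10a doxycycline replicate 2) to 0.015 (without replicate 3 of that group), so its sign was not fixed. For 54 of the 69 the 95% interval lay within a 1.2-fold change in either direction, and for the 42 members with 1 transcript and a mean above 1000 counts this was so for all 42. The doxycycline and control samples did not overlap for 2 members with the doxycycline samples higher (10.5% of all genes) and 3 with them lower (7.75%). In these bulk samples fewer cells and less RNA per cell cannot be told apart.

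Single members lay close in both groups. RPS6 had 1973, 2063 and 1949 CPM with miR-10a induced and 2059, 2015 and 2076 CPM in the controls, and the groups overlapped. Its log2 fold change was -0.039 ± 0.029 (SE, adjusted p = 0.67). RPS16, whose start is printed above, had 509, 522 and 502 CPM with doxycycline and 509, 501 and 492 CPM without, again overlapping. RPS19, mutated in Diamond-Blackfan anaemia, had 1039.7, 1077 and 1022 CPM with doxycycline and 1051, 1023 and 1034 CPM without. RPL5, which joins the 5S ribosomal RNA, had 1136, 1189 and 1135 CPM against 1182, 1129.7 and 1206 CPM. Neither RPS19 nor RPL5 separated the groups.

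The member nearest to the threshold was RPL22L1, the paralog of the RNA-binding protein RPL22. It had 40.8, 41.6 and 36.98 CPM with miR-10a induced and 33.1, 34.5 and 33.8 CPM in the controls, which do not overlap. The log2 fold change was 0.24 ± 0.072 (adjusted p = 0.10). It passed the threshold when miR-10b doxycycline replicate 2 was left out of the shared fit (adjusted p = 0.025) and not under DESeq2 (adjusted p = 0.23). RPL22 itself had 543, 535 and 523 CPM with doxycycline against 544, 516 and 539 CPM without, overlapping, a log2 fold change of 0.0032 ± 0.034. The next in order were RPS27L, with -0.10 ± 0.044 (adjusted p = 0.40), and RPLP0, with 0.60 ± 0.33 (adjusted p = 0.52) at 0.721 to 1.57 CPM in these 6 samples.

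The same question was put to miR-10b. In edgeR's test 5 of 69 members passed (7.25%), against 15.3% of all genes tested (8.18% higher and 7.15% lower). RPL27A rose, and RPS27L, RPL36A, RPS3A and RPS7 fell. The median log2 fold change was -0.0073 in the members and 0.021 over all genes, with 50 of 69 intervals within a 1.2-fold change. With 1 sample left out the median of the members ran from -0.025 (without miR-10b control replicate 1) to 0.025 (without miR-10b control replicate 3), and it was 0.0021 without miR-10b doxycycline replicate 2. Its sign was therefore not fixed either. Among the 42 members with 1 transcript and a mean above 1000 counts 7.14% were called, against 30.1% of all genes of that depth. Without miR-10b doxycycline replicate 2 these shares were 14.3% and 27.0%. The groups did not overlap for 4 members that were higher (16.3% of all genes) and 8 that were lower (12.3%). The 7 progenitor markers summed to 11861 to 12008 CPM in the controls and 11409.9 to 11583 CPM with miR-10b induced (1 higher, 3 lower, with and without that library). Of the 6 neuron markers INA made up nearly the whole count, at 537 to 564 CPM in the controls and 575 to 601 CPM with miR-10b induced, and was the only 1 of 3 tested that was called (0.092 ± 0.031, adjusted p = 0.037). It was not called without miR-10b doxycycline replicate 2 (0.079 with adjusted p = 0.076). Their part in the ribosomal protein values was not tested.

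RPS27L, a p53-inducible paralog of RPS27, had 156, 153 and 173 CPM in the miR-10b controls and 142, 128 and 138 CPM with doxycycline. Every induced sample lay below every control. The log2 fold change was -0.24 ± 0.044 (adjusted p = 0.00013), and RPS27L was called in each of the 20 alternatives tried, at -0.28 to -0.19. It was -0.20 with adjusted p = 0.00062 without miR-10b doxycycline replicate 2. RPS27 had 45.1, 45.0 and 48.1 CPM in the controls and 51.7, 42.6 and 50.1 CPM with doxycycline, and its groups overlapped (log2 fold change 0.066 ± 0.065, adjusted p = 0.56). Of the windows of RPS27 9.57% were unique, against 89.9% in RPS27L, so the reads of RPS27 may belong to a copy. The difference between the paralogs was not tested.

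RPL27A, a large-subunit protein with a TOP start, had 641.6, 633 and 643 CPM in the controls and 692, 732 and 666 CPM with miR-10b induced, which do not overlap. The log2 fold change was 0.12 ± 0.032 (adjusted p = 0.0056), and 0.087 without miR-10b doxycycline replicate 2 (adjusted p = 0.037). Its longest annotated 3′ untranslated region holds 1 match to the miR-10a seed.

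RPL36A had 30.1, 30.3 and 28.3 CPM in the controls and 23.6, 24.02 and 26.3 CPM with doxycycline, without overlap. It fell by 0.26 ± 0.071 on the log2 scale (adjusted p = 0.0084), and had -0.24 with adjusted p = 0.028 without miR-10b doxycycline replicate 2. The gene has 2 listed transcripts and a readthrough transcript into HNRNPH2, so its level is uncertain. Its paralog RPL36AL had 111, 107 and 113 CPM in the controls and 120.1, 117 and 107 CPM with doxycycline, overlapping, with a log2 fold change of 0.055 ± 0.044 (adjusted p = 0.46).

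RPS3A, a protein of the 40S subunit, had 67.8, 65.9 and 67.6 CPM in the controls and 57.7, 58.3 and 61.5 CPM with doxycycline. No induced sample reached the lowest control, and the log2 fold change was -0.18 ± 0.049 (adjusted p = 0.0089), and -0.17 with adjusted p = 0.024 without miR-10b doxycycline replicate 2. With 19.1% unique windows and 2 listed transcripts, RPS3A is one of the members whose reads may belong to a copy.

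RPS7, whose protein binds MDM2, had 403, 417 and 452 CPM in the controls and 395, 394 and 383 CPM with miR-10b induced. All induced samples were below the controls. The log2 fold change was -0.12 ± 0.035 (adjusted p = 0.015), and -0.13 with adjusted p = 0.0088 without miR-10b doxycycline replicate 2. The call was lost without miR-10b control replicate 3 (-0.071, adjusted p = 0.21) and without miR-10b doxycycline replicate 3 (-0.11, adjusted p = 0.055), and with the samples of this contrast alone.

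**Figure D2:**
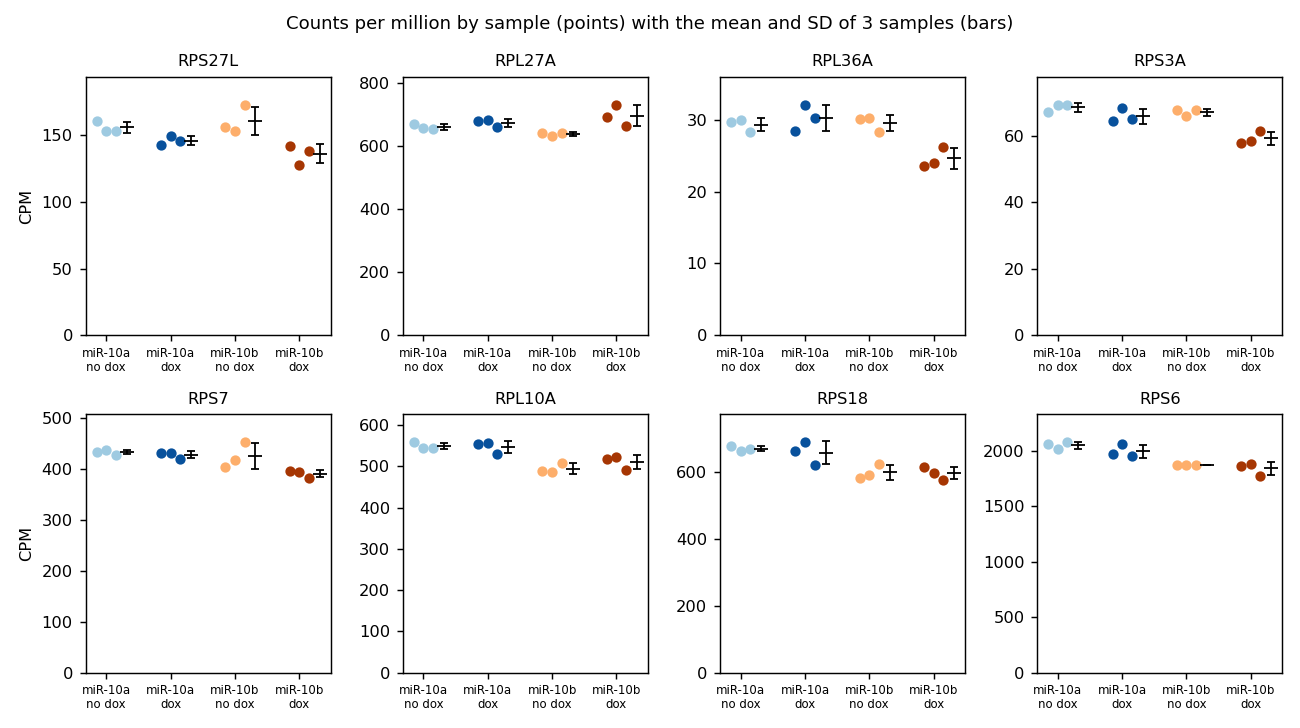
CPM (linear axis from 0) of 8 members in the 12 samples, with bars for the mean and SD of the 3 samples of each group. RPS27L, RPL36A, RPS3A and RPS7 are lower and RPL27A is higher with miR-10b induced than in the miR-10b controls, and RPL10A, RPS18 and RPS6 are lower in the miR-10b than in the miR-10a controls.

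The number of members called for miR-10b depended on single libraries. It was 9 (2 higher, 7 lower, 13.0%) without miR-10b doxycycline replicate 2, against 12.7% of all genes in that fit. Without miR-10b doxycycline replicate 3 it was 15 (9 higher, 6 lower). The share of all genes called in this last fit is not given here, so the 15 cannot be set against it. RPL39, a small large-subunit protein with a TOP start, had 367, 282 and 359 CPM in the doxycycline replicates 1, 2 and 3 and 353, 353 and 387 CPM in the controls, with replicate 2 the lowest. Its log2 fold change was -0.12 ± 0.053 (adjusted p = 0.14) and -0.0054 (adjusted p = 0.95) without replicate 2. In the same library RPS21 had 219.6 CPM against 265 and 249.6 CPM in the other doxycycline replicates, and RPS13 had 351 CPM against 404 and 405 CPM. RPS2 went the other way, with 1302 CPM against 1214 and 1147 CPM, as did RPL35 with 599 CPM against 540.1 and 498 CPM.

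Taking both vectors in one contrast, 3 of 69 members passed in edgeR (4.35%), against 13.9% of all genes (7.67% higher and 6.22% lower). RPS27L fell by 0.17 ± 0.031 on the log2 scale (adjusted p = 0.00017). RPS3A fell by 0.12 ± 0.034 (adjusted p = 0.017), while RPL27A rose by 0.076 ± 0.022 (adjusted p = 0.020). With TMM scaling or in DESeq2 the calls were 4 lower and 0 higher: RPL27A was no longer called, and RPS7 was. Without miR-10b doxycycline replicate 2, RPS27L had -0.15 with adjusted p = 0.00014, RPS3A -0.11 with adjusted p = 0.022 and RPL27A 0.057 with adjusted p = 0.039, and 10 members were called, against 13.7% of all genes in that fit. RPS27L was lower in all 6 induced samples than in every control of its own vector. At the ends of the order were RPL17 with -0.19 ± 0.27 and RPLP0 with 0.50 ± 0.23, both near 1 CPM and neither called. RPL7A, the member at the median, had -0.0050 ± 0.022.

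The miR-10b effect was set against the miR-10a effect in a model contrast of its own. No member passed in edgeR or DESeq2, against 1.96% of all genes (0.576% higher and 1.38% lower), and 7 had an unadjusted p below 0.05. RPL36A came closest, at -0.31 ± 0.099 (adjusted p = 0.10), and was called once miR-10b doxycycline replicate 3 was left out (adjusted p = 0.048). RPL6 followed with -0.54 ± 0.21 (adjusted p = 0.22) and RPS27L with -0.15 ± 0.063 (adjusted p = 0.28). The 5 calls for miR-10b and the 0 for miR-10a are therefore not shown to differ between the vectors.

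**Figure D3:**
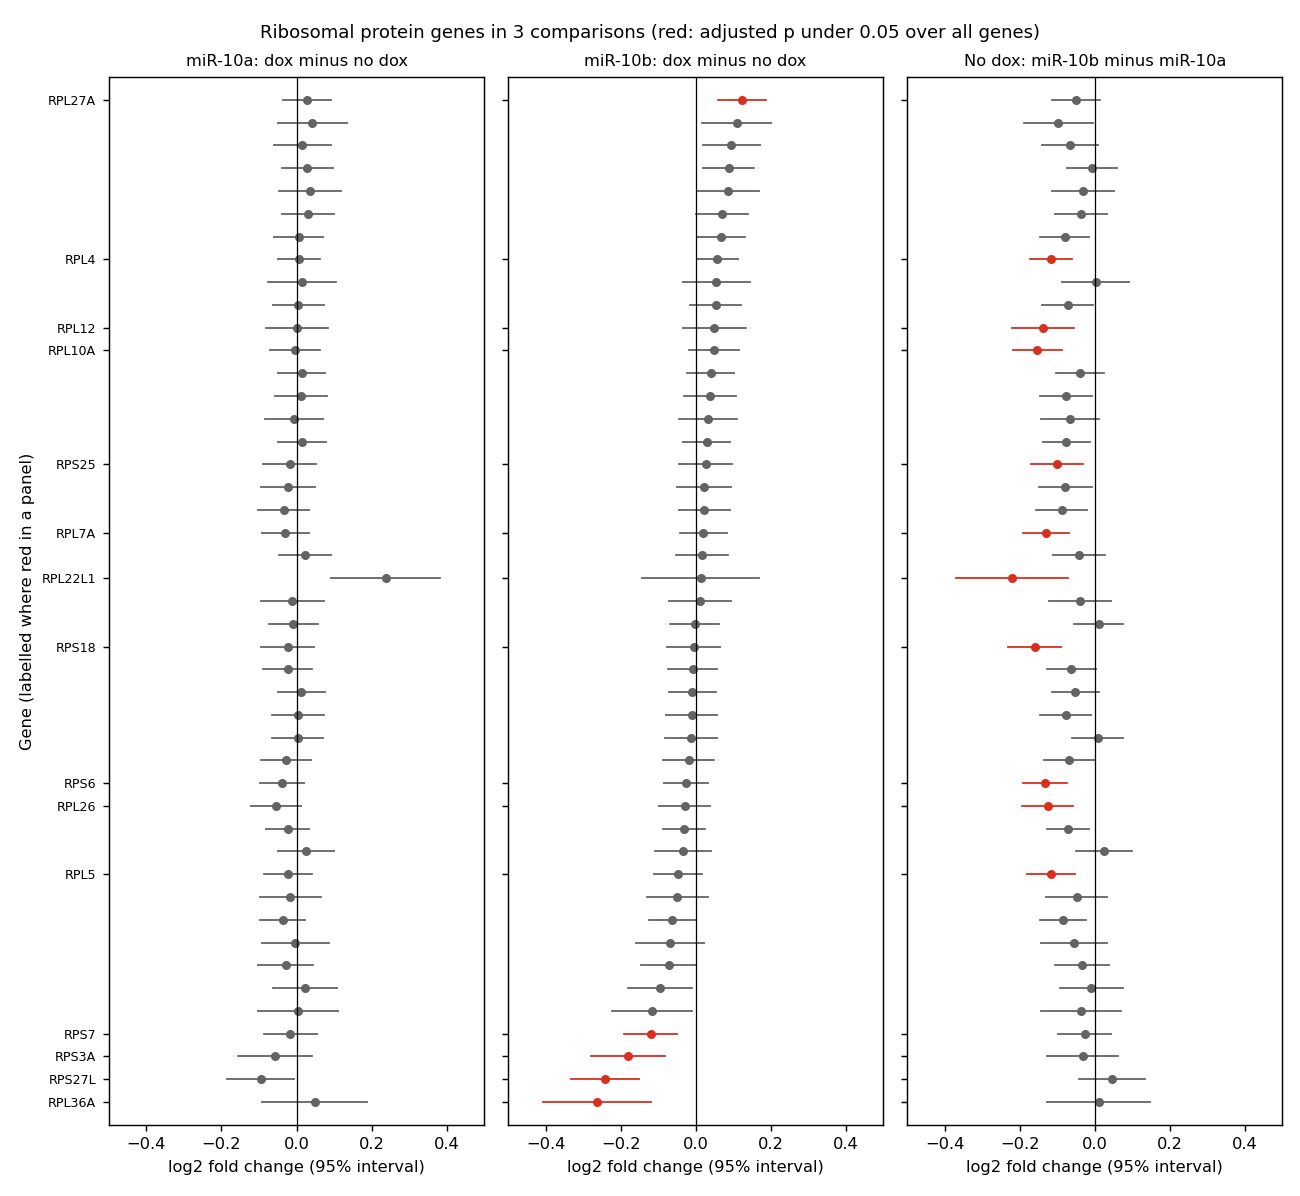
log2 fold change with 95% interval (edgeR) of the 42 well counted members with RPL22L1, RPL36A and RPS3A added, ordered by the miR-10b effect, in 3 comparisons, with names where a member was called. Red marks an adjusted p under 0.05 over all genes: none in the left panel (miR-10a), 5 in the middle panel (miR-10b) and 10 in the right panel (miR-10b against miR-10a controls), where most points lie left of 0.

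The controls of both vectors, which had received no doxycycline, were compared next. In edgeR's test 10 of 69 members were lower in the miR-10b than in the miR-10a controls and none was higher. This is 14.5%, against 14.1% of all genes called in either direction, 7.41% higher and 6.72% lower. The 10 became 16 (23.2%), all lower, when miR-10b doxycycline replicate 2 was left out of the shared fit. In that fit 17.4% of all genes were called in either direction, and 983 of 11447 were lower. Among the 42 members with 1 transcript and a mean above 1000 counts 21.4% were called, all lower. Of all genes of that depth 24.6% were called in either direction, and 376 of 2892 were lower. The median log2 difference was -0.053 in the members, with 53 of 69 below 0, and -0.010 over all genes. The groups did not overlap for 23 members with the miR-10b controls lower (15.9% of all genes) and 2 with them higher (14.2%). Vector, transduced line and any difference in handling cannot be told apart here.

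RPL10A had 559, 544 and 546 CPM in the miR-10a controls and 488, 485 and 509.5 CPM in the miR-10b controls, without overlap. The log2 difference was -0.15 ± 0.032 (adjusted p = 0.00066). RPS18, a protein of the small-subunit head, had 677, 663 and 669 CPM against 582, 591 and 626 CPM, also without overlap and with a difference of -0.16 ± 0.035 (adjusted p = 0.00090). RPS6 had 2059, 2015 and 2076 CPM against 1869, 1871 and 1874 CPM, a difference of -0.13 ± 0.029 (adjusted p = 0.0010). These 3 kept their call in all 20 alternatives, as did RPL4 (-0.12 ± 0.027) and RPL7A (-0.13 ± 0.031).

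The further called members were RPL26, RPL5, RPL12, RPL22L1 and RPS25. RPL26 differed by -0.13 ± 0.033 and RPL5 by -0.12 ± 0.031 on the log2 scale, and both are known as regulators of p53. RPL12 had 324, 311 and 319.7 CPM in the miR-10a controls and 290.0, 282 and 296 CPM in the miR-10b controls. Each of these 5 lost its call in at least 2 of the alternatives. RPL22L1 had 33.1, 34.5 and 33.8 CPM against 27.2, 28.1 and 31.6 CPM, without overlap, while RPL22 had 544, 516 and 539 CPM against 522, 536 and 548 CPM and overlapped.

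For none of these 10 did the doxycycline comparison of either vector pass the threshold. RPL10A had 555, 558 and 531 CPM with miR-10a induced and 519, 523 and 491 CPM with miR-10b induced. The summed level of the 8 ventral midbrain and floor plate markers moved with the vector as well, at 1070.5 to 1089 CPM in the miR-10a controls and 1346 to 1369.6 CPM in the miR-10b controls, with 4 of 6 tested markers higher and 0 lower in the latter. Of all genes tested, 7.41% were higher and 6.72% lower between these controls. The 7 progenitor markers summed to 10726 to 10810.1 CPM and 11861 to 12008 CPM, with 3 of 7 higher and 2 lower. NES and VIM made up most of this sum, at means of 4595 and 4246 CPM in the miR-10a and 5160 and 4842 CPM in the miR-10b controls. SOX1 and SOX3 went the other way, from means of 52.2 and 157 CPM in the miR-10a controls to 22.2 and 92.6 CPM. Of the 4 pluripotent cell markers only DPPA4 was tested, and it was lower in the miR-10b controls, at 105 to 110.4 CPM against 140.1 to 148 CPM (-0.43 ± 0.044, adjusted p = 1.1e-09). POU5F1, NANOG and TDGF1 were near 0. The part of these marker differences in the ribosomal protein values was not tested.

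Summed over the protein genes, the family took 2.75% to 3.03% of the counts of a sample. This is a share of the deposited counts and not of the mRNA, since 5 members have no count and the members with a single listed transcript hold 2.86% of the mean of 2.90%. The group means were 2.98% ± 0.0361 (SD, n = 3) in the miR-10a controls, 2.96% ± 0.0671 with miR-10a induced, 2.83% ± 0.0682 in the miR-10b controls and 2.84% ± 0.0751 with miR-10b induced. Without replicate 2 the last mean was 2.82% (n = 2). Induction moved the mean of either vector by less than the SD of the group. The large-subunit genes held 1.43% to 1.56% and the small-subunit genes 1.33% to 1.46% of the counts of a sample.

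The members moved together from sample to sample. Among the 42 members with 1 transcript and a mean above 1000 counts, the median pairwise correlation of log2 CPM, after the group means were taken out, was 0.60 over 12 samples, and 87.8% of the pairs were positive. For 2848 other genes with a mean above 1000 counts it was 0.0058, with 50.4% positive. The members were counted more deeply, at a median of 6658 counts against 2153 counts. All genes of a sample share its library and its depth, so these correlations are a description. Without miR-10b doxycycline replicate 2 the median was 0.65, and 96.3% of pairs were positive.

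**Figure D4:**
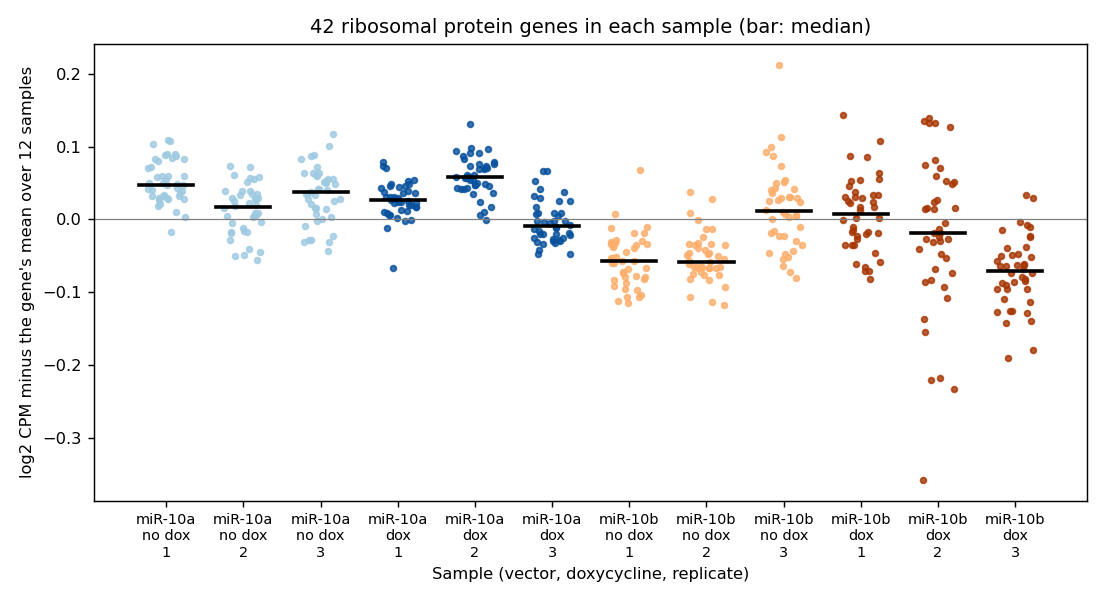
log2 CPM of the 42 well counted members in each sample, minus the mean of that gene over the 12 samples, with the median as a bar. The medians of 5 of the 6 miR-10a samples lie above 0, the lowest median is -0.070 in miR-10b doxycycline replicate 3, and miR-10b doxycycline replicate 2 has the widest spread.

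Within a group the members shifted as one in several samples. In miR-10b control replicate 3, 41 of the 42 members lay above the mean of their group (median 0.045 on the log2 scale), and in miR-10b doxycycline replicate 3 only 7 did (median -0.051). In miR-10a doxycycline replicate 2, 41 lay above, and in replicate 3 of that group 3 did. The members spread around this shift with an SD of 0.016 to 0.021 in the 6 miR-10a samples, against 0.033 to 0.046 for the other genes with a mean above 1000 counts. The other genes were not matched to the members in depth, and the part of the deeper counts in this difference was not tested. In the miR-10b controls the SD was 0.019 to 0.030 in the members and 0.037 to 0.041 in the other genes. In miR-10b doxycycline replicates 1, 2 and 3 it was 0.036, 0.079 and 0.054 in the members. The other genes had 0.039, 0.070 and 0.051 there, so the narrower spread was not seen in that whole group.

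The tested members were also divided by sequence. Of the 55 with a RefSeq promoter entry, 35 had C and at least 4 pyrimidines at the annotated start. Within 10 bases of the start 45 had such a stretch, so the 20 without one at the start include members with one nearby. The median log2 fold change for miR-10a came to 0.0032 in the 35 members with C and at least 4 pyrimidines at the annotated start and -0.0022 in the 20 without. For miR-10b the medians were -0.0057 and -0.048, with 3 (8.57%) and 2 (10.0%) members called, against 15.3% of all genes. Without miR-10b doxycycline replicate 2 they were 0.0079 and -0.025, with 3 and 6 called, against 12.7% of all genes. Between the controls the medians were -0.055 and -0.042, with 7 of 35 (20.0%) and 2 of 20 (10.0%) called, all lower, against 14.1% of all genes called and 6.72% lower. These calls became 8 and 5, all lower, without that library, against 17.4% of all genes called in either direction and 983 of 11447 lower. Of the members called for miR-10b, RPL27A, RPL36A and RPS3A have C and at least 4 pyrimidines at the annotated start. The stretches of RPL27A and RPS7 both run across that start, but RPS7 has only 3 pyrimidines from it on. RPS27L has no stretch. The 9 tested members with a seed match in the longest 3′ untranslated region had medians of 0.0051 for miR-10a and 0.023 for miR-10b, and the 60 without had -0.0038 and -0.0097. For miR-10b these became 0.029 and 0.00088 without that library. The differences between these subsets were not tested. A match in the longest untranslated region need not lie in the counted transcript.

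The remaining paralogs and stalk proteins gave no call in any comparison. RPL39L had 57.3 to 64.4 CPM, RPL26L1 27.6 to 34.0 CPM and RPL7L1 52.5 to 60.4 CPM over the 12 samples. RPL26L1 had a log2 difference of 0.13 ± 0.066 between the miR-10b and the miR-10a controls (adjusted p = 0.23), with no overlap, while RPL26 was lower. Of the acidic stalk proteins, which recruit the translation factors, RPLP2 had 447 to 485 CPM and RPLP1 35.9 to 45.7 CPM. The log2 fold change of RPLP2 was 0.012 ± 0.031 for miR-10a and -0.0086 ± 0.031 for miR-10b. RPL9 had 3.00 to 5.50 CPM, and its SE of 0.17 for miR-10a is too large to show a difference of the size seen in the called members.

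Other genes of the same programme were read from lists of textbook members. Of 20 tested TOP mRNAs outside the family, 0 passed for miR-10a, and 2 rose and 2 fell for miR-10b, where 15.3% of all genes were called. Their median for miR-10b was 0.041, against 0.021 over all genes, and it was 0.033 without miR-10b doxycycline replicate 2, with 4 higher and 2 lower (12.7% of all genes called). EIF4A2, an RNA helicase of initiation, rose by 0.25 ± 0.031 on the log2 scale (adjusted p = 2.8e-07) and EEF2, the translocation factor, by 0.11 ± 0.029 (adjusted p = 0.0074). NAP1L1, a histone chaperone, had -0.24 ± 0.057 (adjusted p = 0.0030) and HNRNPA1, a splicing regulator, -0.19 ± 0.054 (adjusted p = 0.012), both with 2 listed transcripts. Without miR-10b doxycycline replicate 2, EIF4A2 had 0.27 with adjusted p = 8.2e-10, EEF2 0.076 with adjusted p = 0.040, NAP1L1 -0.14 with adjusted p = 0.031 and HNRNPA1 -0.23 with adjusted p = 0.0046. EIF4A2 also passed when its miR-10b effect was set against its miR-10a effect (0.16 ± 0.044, adjusted p = 0.045, and 0.18 with adjusted p = 0.0042 without that library). Between the controls, VIM was higher with miR-10b (0.19 ± 0.026), and PABPC1 (-0.12 ± 0.032), EIF3H (-0.11 ± 0.031) and EEF1D (-0.35 ± 0.12) were lower.

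Of 25 tested ribosome assembly factors and RNA polymerase I genes, 0 passed for miR-10a and 3 fell for miR-10b, where 7.15% of all genes fell. These were NOP58, a protein of the small nucleolar ribonucleoproteins (-0.14 ± 0.036), UTP20 (-0.14 ± 0.040) and MYC (-0.25 ± 0.076, adjusted p = 0.024). NOP58 kept its call without miR-10b doxycycline replicate 2 (-0.11 with adjusted p = 0.027), and UTP20 (-0.11 with adjusted p = 0.073) and MYC (-0.23 with adjusted p = 0.070) did not. MYC, which drives ribosome synthesis, had -0.23 ± 0.077 for miR-10a (adjusted p = 0.16). Over both vectors it had -0.24 ± 0.054 (adjusted p = 0.0018, and -0.23 with adjusted p = 0.0033 without that library). It was 1 of 4 of the list that fell over both vectors, where 6.22% of all genes fell. In the miR-10b controls 7 of the 25 were lower and 0 higher than in the miR-10a controls, against 6.72% of all genes that were lower, with a median of -0.12 against -0.010 over all genes. They were 11, all lower, without that library, against 17.4% of all genes called in either direction and 983 of 11447 lower. Among the 7 were RRS1 with -0.22 ± 0.050 and POLR1A, the largest polymerase I subunit, with -0.15 ± 0.035.

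In 6 tested noncoding hosts of small nucleolar RNAs none passed for either miRNA, and GAS5 was lower in the miR-10b controls (-0.15 ± 0.052, adjusted p = 0.045). Of 11 tested genes of the TOR pathway and TOP regulators, none passed for either miRNA. LARP1, which binds the TOP stretch, had 0.084 ± 0.030 for miR-10b (adjusted p = 0.051). EIF4EBP1, a translation repressor and TOR substrate, was lower in the miR-10b controls (-0.29 ± 0.047, adjusted p = 1.2e-05). The p53 readout of disturbed ribosome assembly had 3 tested genes, none of which passed in any comparison.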

How the data were processed

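The deposited files hold raw read counts per RefSeq transcript, 1 file per sample, with transcript lengths. By the study's methods the authors sequenced poly-A enriched libraries, and the submitters' processing notes name STAR, Subread, featureCounts and hg19. The treatment of reads shared by transcripts or copies is not given in the sources used here. Repeated rows (3698) were dropped. edgeR 4.0.16 (R 4.3.3) quasi-likelihood tests used 1 fit with 4 group means over 12 samples, the total count as library size, genes with a mean above 10 counts, and Benjamini-Hochberg adjustment over 11451 genes. The script was tested on simulated data. DESeq2 1.42.0, TMM factors, other filters and leaving out samples were alternatives. CPM and RPKM were computed from the deposited counts and lengths. Named members were the 10 highest by RPKM, those called in each comparison or the 3 nearest, the extremes and median over both vectors, a fixed set of well-known members and paralogs, and untested members, with up to 4 genes of each other list. RPL22, RPS27, RPL39, RPL7, RPS21, RPS13, RPL35 and RPS29 were added after their values were seen. Some members that the naming rule covers are not reported here. The members and lists were chosen with earlier results of these data known.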

Additional observations from a re-analysis of the deposited data

How the results depend on the processing

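The number of members called for miR-10a was 0 and became 1 (RPL22L1) with the samples of the contrast alone, and was 0 to 1 with 1 sample left out. For miR-10b the 5 calls became 8 of 80 tested with no filter on low counts and 3 of 49 tested among members with 1 listed transcript. They were 5 to 15 with 1 sample left out. With 1 sample left out, the 3 calls over both vectors became 1 to 10, the 0 for the difference between the vectors 0 to 1, and the 10 between the controls 6 to 16. Between the controls the 6 came without miR-10a control replicate 1 or 3 or miR-10b control replicate 1 or 2, and the 16 without miR-10b doxycycline replicate 2. Over both vectors the 1 came without miR-10a doxycycline replicate 1 and the 10 without miR-10b doxycycline replicate 2. Without miR-10b doxycycline replicate 2 the shares of all genes called for miR-10a, miR-10b and both vectors were 2.34%, 12.7% and 13.7%. They were 2.03% for the difference and 17.4% between the controls. For the other alternatives no share over all genes is given, so those counts cannot be read as a result about the members. The share of counts, 2.90%, became 3.06% when the 10 most abundant other genes were left out of the total. Followed through the alternatives were the members called in a comparison, or the 3 nearest where none was called. Their values kept their direction, 33 lost and 3 gained a call, and 438 stayed on their side of the threshold. The other named members were not followed in this way. With 1 sample left out the median log2 fold change of the members over both vectors ran from -0.014 to 0.0053 and between the controls from -0.082 to -0.045. The cause of these changes was not tested. Replicate numbers did not pair the samples (correlations of same-numbered samples -0.032 to 0.0082), and a block for the number gave 0, 5, 3, 0 and 10 calls in the 5 comparisons.

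The median SE of 0.041 on the log2 scale in the tested members for miR-10a limits what can be seen, and members near 1 CPM can hide far larger differences. The 16 untested members and the reads shared with pseudogenes were not resolved by these counts.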
